A study of Mus musculus with 2 samples.

Results

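The trace amine receptor genes stand in a single tandem locus on mouse chromosome 10. The genes described are Taar1, Taar2, Taar3, Taar4, Taar5, Taar6 and Taar9, chosen by name, 7 of the 15 protein-coding Taar genes of the locus and 7 of 21755 protein-coding genes on chromosomes 1 to 19 and X. The other 8 coding genes are Taar7 and Taar8 copies, near-identical within each set, and the locus also holds 1 pseudogene, Taar7c-ps. They were set against the chromatin boundaries of mature olfactory sensory neurons, the borders across which neighbouring stretches of chromatin contact each other less. No boundary lay between Taar1 and Taar9, and all 16 Taar genes shared 1 domain of 310 kb with a Strong boundary on each side.

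Trace amine-associated receptors are G protein-coupled receptors that bind volatile amines. Taar1 is not an olfactory gene and responds to tyramine and phenylethylamine in the brain and periphery. The others are olfactory receptors: a small minority of olfactory neurons each express 1 of them, in place of a classical odorant receptor, and signal through the olfactory G protein. Choice among these genes depends on a pair of enhancers inside the cluster.

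The boundaries come from in situ Hi-C, which joins DNA ends that lie together in fixed nuclei. The labels give 1 group with 2 biological replicates, made from 3000000 and 1500000 cells that were sorted as mature neurons from the olfactory epithelium of adult OMP-GFP mice, whose fluorescent marker follows the olfactory marker protein gene. The mice were of strain 129P2/OlaHsd and mixed sex, with no treatment, and the labels list no modification. The authors joined both replicates into 1 map. Replicate spread therefore cannot be given for any value, the samples cannot be compared and no test was made. The sort takes all mature neurons, so the map is an average over cells of which most do not express a Taar gene. Contact depth is unknown here, and a boundary list holds no expression, so the sorted cell type rests on the labels alone.

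The deposited list holds 8058 intervals of 5 kb, each with a score and a class. The score is the authors' boundary strength, without a stated scale, and here only ranks boundaries within this list. Weak covers scores up to 0.5 and Strong those above, with a median of 0.509 over all boundaries and a highest value of 4.32. A domain is the stretch between adjacent boundaries. All positions are on GRCm38, with genes from GENCODE mouse release 21.

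The Taar locus ran from 23920356 to 24109534 on chromosome 10, a length of 189 kb. With 1 Mb to each side it held 7 boundaries in 2.19 Mb, or 3.2 per Mb, close to the 3.15 per Mb of the genome. Of these, 6 were Strong and 1 was Weak, where 50.8% of all boundaries were Strong.

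**Figure D1:**
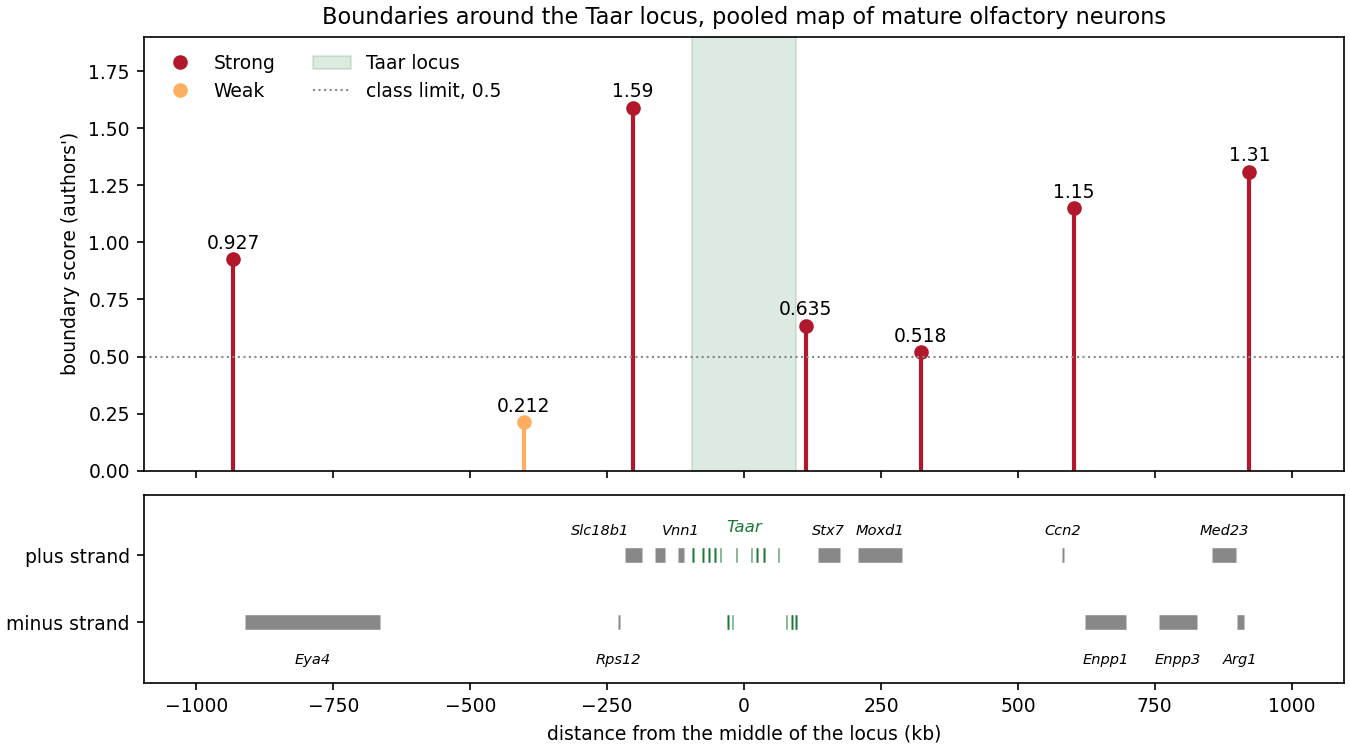
Boundary scores (authors' unit, upper panel) and protein-coding genes by strand (lower panel) against the distance from the middle of the Taar locus in kb. No boundary falls in the shaded locus; the nearest on the left has a score of 1.59 and the nearest on the right one of 0.635.

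The left neighbour was the highest of the 7. It lay at 23810001 to 23815000, 105 kb before Taar1, with a score of 1.59, rank 627 of 8058. It overlapped an exon of Slc18b1, a vesicular polyamine transporter gene that starts 13 kb to the left of it, so the 3′ end of Slc18b1 reaches into the Taar domain.

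The right neighbour lay at 24125001 to 24130000, only 15.5 kb beyond Taar9, with a score of 0.635, rank 3270. It overlapped an exon of the long intergenic RNA gene Gm40614. Taar9 was the nearest coding gene on one side at 15.5 kb, and Stx7, which encodes an endosomal SNARE protein, began 19.3 kb away on the other. Domains with a Strong boundary on both sides, such as this one, made up 26.4% of all domains.

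Farther left, a Weak boundary of score 0.212 (rank 7741) lay at 23610001 to 23615000, and a Strong one of 0.927 at 23080001 to 23085000. Between them stood Eya4, a transcriptional coactivator gene, in a domain of 525 kb. The ribosomal protein gene Rps12 and the start of Slc18b1 shared the 195 kb domain next to the Taar domain.

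Farther right, the boundaries scored 0.518 at 24335001 to 24340000, 1.15 at 24615001 to 24620000 and 1.31 at 24935001 to 24940000. Stx7 and Moxd1, a relative of dopamine beta-hydroxylase, filled a domain of 205 kb. Ccn2, the gene of connective tissue growth factor, stood in the next domain of 275 kb, 19.6 kb from the boundary of score 1.15. Enpp1, Enpp3, Med23 and the arginase gene Arg1 shared 315 kb, with Arg1 starting 7.52 kb from the boundary of score 1.31.

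CTCF is a DNA-binding protein that halts loop-forming cohesin, and its binding sequence has a direction. Its core consensus, 14 bases long, was searched on both strands. Of the 7 boundaries around the locus, 3 had an exact core match within 20 kb, against 21.9% of all boundaries. With 1 mismatch allowed it was 5 of the 7, against 76.3% of all. The share thus lay above the background by the first rule and near it by the second. Within 5 kb of the left flank of the Taar domain lay a match with 1 mismatch, 0.347 kb inside the domain and in an intron of Slc18b1, on the plus strand. At the right flank an exact match lay outside the domain, 1.63 kb beyond the far edge of the boundary interval. This match was in an intron of Gm40614, on the minus strand. Both matches therefore pointed toward the Taar genes. They are shown because they stand nearest to the borders of the domain, each 5′ to 3′ on its own strand, with the core in capitals. The left one is chr10:23815327-23815380 (plus strand) and the right one chr10:24131613-24131666 (minus strand), both read from GRCm38.p6.
left flank: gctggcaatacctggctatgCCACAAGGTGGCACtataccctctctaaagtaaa
right flank: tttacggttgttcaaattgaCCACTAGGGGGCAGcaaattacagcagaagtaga

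The mismatch in the left sequence lies at position 5 of the core, counted from its 5′ end. An arrangement of this kind has matches of at most 1 mismatch that point inward, within 5 kb of both boundary intervals. It was found at 6.83% of all domains, and its mirror image, pointing outward, at 7.38%. By this loose rule the inward arrangement was no more frequent than the outward one. With 1 mismatch allowed, 76.3% of all boundaries had a match within the wider limit of 20 kb. The share of single boundaries with a match within 5 kb is not given here. The matches are of letters only, and whether CTCF is bound at them was not tested. The shares of 6.83% and 7.38% therefore cannot show how bound CTCF is oriented.

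Within the domain there was no exact match and there were 8 with 1 mismatch, 25.8 per Mb against 22.6 per Mb in the genome. Of these, 6 were on the plus strand and 2 on the minus strand. Every plus-strand match lay to the left of both minus-strand ones. No share over all domains is given for this order, so it cannot be set against a background. The other exact matches near a boundary of the window stood 2.03 kb beyond the boundary of score 0.927 and 5.26 kb beyond that of score 1.15.

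The domain held 17 coding starts, 15 of them Taar genes (88.2%). The other 2 were Vnn3, 36.5 kb from the left boundary, and Vnn1, 79.7 kb from it, which encode vanins, enzymes of pantetheine breakdown. The Taar locus covered 61.0% of the domain and lay against its right end, with 105 kb free before Taar1 and 15.5 kb after Taar9.

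**Figure D2:**
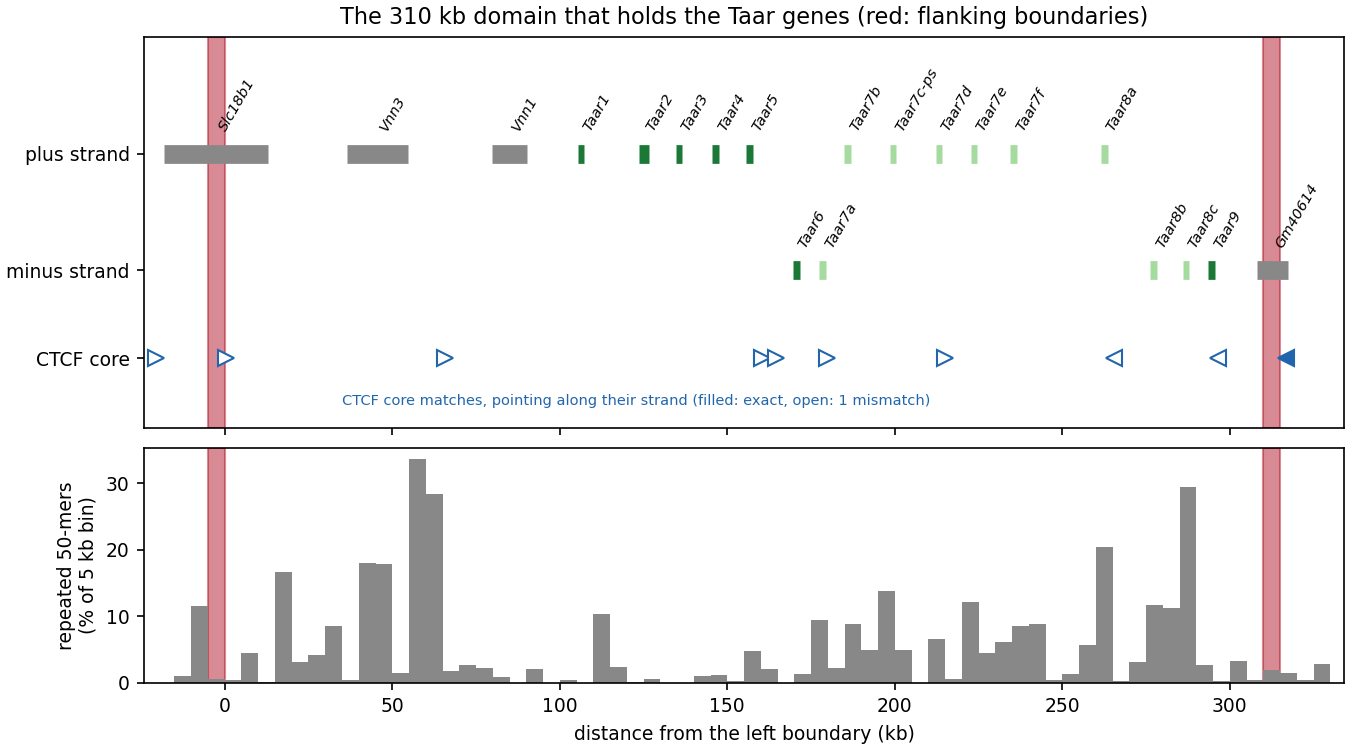
Upper panel, genes by strand and CTCF core matches against the distance from the left boundary in kb (dark green, the 7 listed Taar genes; light green, other Taar genes; red, flanking boundaries). Lower panel, the share of 50-base words in each 5 kb bin that recur within the window, in percent; the boundary bins stand at 0.545% and 1.88%.

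Each Taar gene was measured from its transcription start site (TSS), the 5′ end of the gene record. The plus-strand genes Taar1 to Taar5 make up the left part of the locus. Taar1 (23920356 to 23921469) started 105 kb from the left boundary and 205 kb from the right one. Taar2 (23938572 to 23941583), the only listed gene with 2 exons, started 124 and 186 kb from them. Taar3 (23949558 to 23950589), known to respond to primary amines such as isoamylamine, started 135 and 175 kb from them. These 3 genes were nearer the left boundary by a wide margin.

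Taar4 (23960494 to 23961537), the receptor for phenylethylamine, an odour of carnivore urine, started 145 kb from the left and 165 kb from the right boundary. Taar5 (23970706 to 23971719), the receptor for trimethylamine, stood at 50.2% of the domain's length, 156 kb from the left boundary and 154 kb from the right one. Taar5 was the farthest of all Taar genes from any boundary, and 87.0% of coding genes were nearer to one. Taar6 (23984609 to 23985646, minus strand) started 171 and 139 kb from them.

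Taar9 (24108488 to 24109534, minus strand) was the exception, with 295 kb to the left boundary and 15.5 kb to the right one, and 17.2% of coding genes were nearer to a boundary. It was the 1 listed gene of 7 whose TSS had a boundary at most 20 kb away, where 21.2% of coding genes were that near. Within 50 kb it was again 1 of 7, against 44.9%. A share of 1 in 7 lies close to the first of these backgrounds, and the genes share 1 domain and so the same pair of boundaries.

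Over the 7 genes the distance to the nearest boundary ran from 15.5 to 154 kb with a median of 135 kb. Over all coding genes the median was 57 kb and the middle 50% lay from 24.5 to 105 kb. So 6 of the 7 listed genes were at or beyond the upper end of that range and 1 was below it. Taar7 and Taar8 genes filled the space between, from 132 kb at Taar7a to 23.1 kb at Taar8c, and the median over the 15 coding Taar genes was 105 kb.

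**Figure D3:**
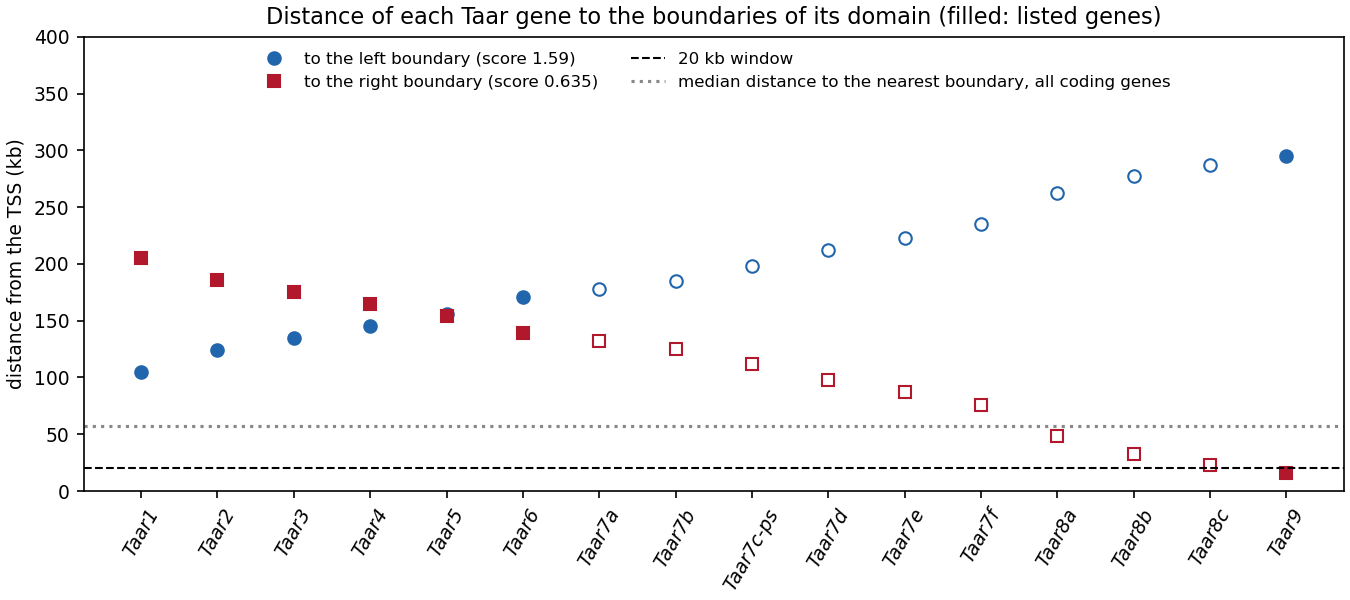
Distance in kb from the TSS of each Taar gene, in chromosome order, to the left and the right boundary of the domain; the dotted line is the median distance of all coding genes to their nearest boundary. Distances to the right boundary fall from 205 kb at Taar1 to 15.5 kb at Taar9, the only point below the 20 kb line.

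At 310 kb it was larger than 62.9% of 7997 domains, whose median was 255 kb and whose middle 50% ran from 175 to 375 kb. It held many more coding starts than most: 101 domains had 17 or more, 86 of these had more than 17, and the median was 1. By density, 98.2% of domains had fewer coding starts per Mb than its 54.8. Of those 101 domains, 31 had odorant, vomeronasal or trace amine receptors as over 50% of their coding starts. The Taar domain was the next to smallest of the 31, whose median size was 585 kb. It was 1 of 6 among them with a Strong boundary on both sides. The limit of 17 starts was the Taar domain's own count, so domains of mostly receptor genes with fewer starts were left out. Some of those were smaller than 310 kb. The size rank therefore holds only among the 31 and cannot show whether the Taar domain is small for a receptor domain.

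**Figure D4:**
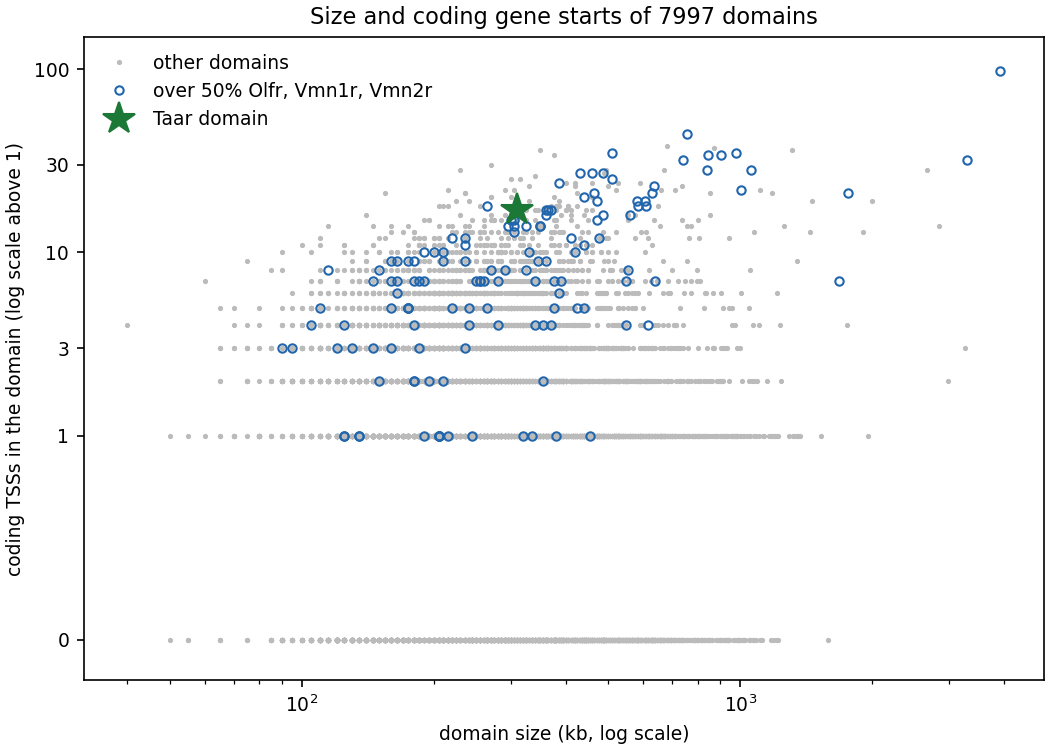
Coding starts against size in kb (both on log scales, the vertical one above 1) for 7997 domains. The Taar domain (star) holds 17 starts in 310 kb; circles mark domains in which over 50% of coding starts are odorant or vomeronasal receptor genes.

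Base composition of the domain lay within the range of the others. GC content was 41.3% against a median of 42.2%. Soft-masked (repeat) sequence was 39.6%, above 77% of domains. DpnII sites, at which the library was cut, stood at 2.6 per kb, above 75% of domains. The boundary intervals held fewer, at 1.0 per kb on the left and 1.8 per kb on the right. Whether cutting density bears on the scores was not tested.

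The listed genes differ from each other in sequence far more than Taar7 genes do among themselves, or Taar8 genes among themselves. Coding sequences of the 7 listed genes were 52.7 to 68.9% identical in pairs, with a median of 56.0% over 21 pairs. Taar6 and Taar9, the pair on the minus strand, were the closest at 68.9%, followed by Taar2 and Taar3 at 64.8%. Taar1 was at most 57.5% identical to another Taar gene. The 5 coding Taar7 genes were 91.7 to 95.3% identical among themselves and the 3 Taar8 genes 96.6 to 98.1%. Between a coding Taar7 and a Taar8 gene it was only 67.7 to 69.1%, near the closest listed pair. Taar6 was nearer to Taar8b (78.4%) than to any listed gene.

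The longest exact run shared by any pair of listed coding sequences was 21 bases, between Taar6 and Taar9, near the start of the coding sequence. It is printed to show how short the identical stretches of the listed genes are, in capitals with 15 bases to each side, from chr10:23985577-23985627 and chr10:24109465-24109515 on the minus strand of GRCm38.p6.
Taar6: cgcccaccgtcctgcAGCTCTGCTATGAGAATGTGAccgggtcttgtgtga
Taar9: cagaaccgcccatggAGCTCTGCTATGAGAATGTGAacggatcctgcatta

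Among Taar7 genes the longest shared runs were 102 to 256 bases and among Taar8 genes 127 to 326 bases. Reads from such runs can fit more than 1 place. Of the 50-base words in the listed genes, 0 to 0.101% recurred elsewhere in the window, against 29.5 to 53.9% in the coding Taar7 and 50.9 to 72.5% in the Taar8 genes. Repeats outside the window were not counted. Over the stretch from Taar1 to Taar5 the share was 1.62% and from Taar6 to Taar9 it was 7.09%, while the 105 kb before Taar1 had 7.03%. The part played by repeated sequence in the lack of a boundary inside the locus was not tested.

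RefSeq promoter windows (250 bases before to 50 after the start, GRCm38.p6) matched 5 of the 7 listed genes, all but Taar1 and Taar4. The listed Taar records other than Taar1 begin at the start codon in GENCODE, so a true start may lie farther upstream. Of the 5 windows, TATAAA (either strand) was in 2, those of Taar2 and Taar5, against 13.7% of all 32619 windows. The homeodomain core TAATTA was in 0 of 5 (5.25% of all windows), and CCCNNGGGA, the core bound by EBF proteins, was in 0 of 5 (6.60%). Windows reaching 1 kb before the start had TAATTA in 3 of the 5 (22% of all windows) and TATAAA in 5 (45.5%). CCCNNGGGA was in 0 of them (16.8%). For TAATTA, 0 of 5 is the count nearest to 5.25%, so only the longer windows set its share apart from that of all windows. With only TATAAA present, no motif overlapped another in the shorter windows. GC content was 38 to 48.7% with a median of 42.7%, below the 53.0% median of all windows.

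Other chemoreceptor families were built into runs by the same rule, at least 3 genes or pseudogenes with gaps of at most 1 Mb, and those spanning 100 to 500 kb were kept. This gave 17 runs beside the Taar locus, 13 of odorant receptor (Olfr), 2 of Vmn1r, 1 of Vmn2r and 1 of formyl peptide receptor (Fpr) genes; no Ms4a run fell in that range. No boundary lay inside 6 of the 17 (35.3%), 1 lay inside 8 and 2 lay inside 3. An undivided span, as at the Taar locus, was thus found in a minority of the other runs.

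The 3 runs nearest in span to the 189 kb of the Taar locus differed among themselves. The run from Olfr1326-ps1 to Olfr1327-ps1 on chromosome X (194 kb, 3 genes) had no boundary inside and Strong ones at 134 and 227 kb. The run from Olfr1379-ps1 to Olfr1374-ps1 on chromosome 11 (185 kb, 8 genes) had none inside and Strong ones at 13.9 and 56.5 kb, in a domain of 255 kb. The run from Olfr70 to Olfr155 on chromosome 4 (163 kb, 8 genes) had 1 Strong boundary inside and Strong ones at 99.8 and 22.4 kb. Like the Taar locus, the runs on chromosomes X and 11 thus had no boundary inside and Strong ones on both sides. In all, 3 of the 17 runs did. The remaining one was a longer Olfr run on chromosome 4 (279.7 kb, 15 genes) in a domain of 350 kb. The Taar locus had its next boundaries at 105 and 15.5 kb. Over the 17 runs the nearer edge lay a median of 51.0 kb and the farther edge 229 kb from the next boundary, and 6 of the 17 had Strong boundaries on both sides.

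**Figure D5:**
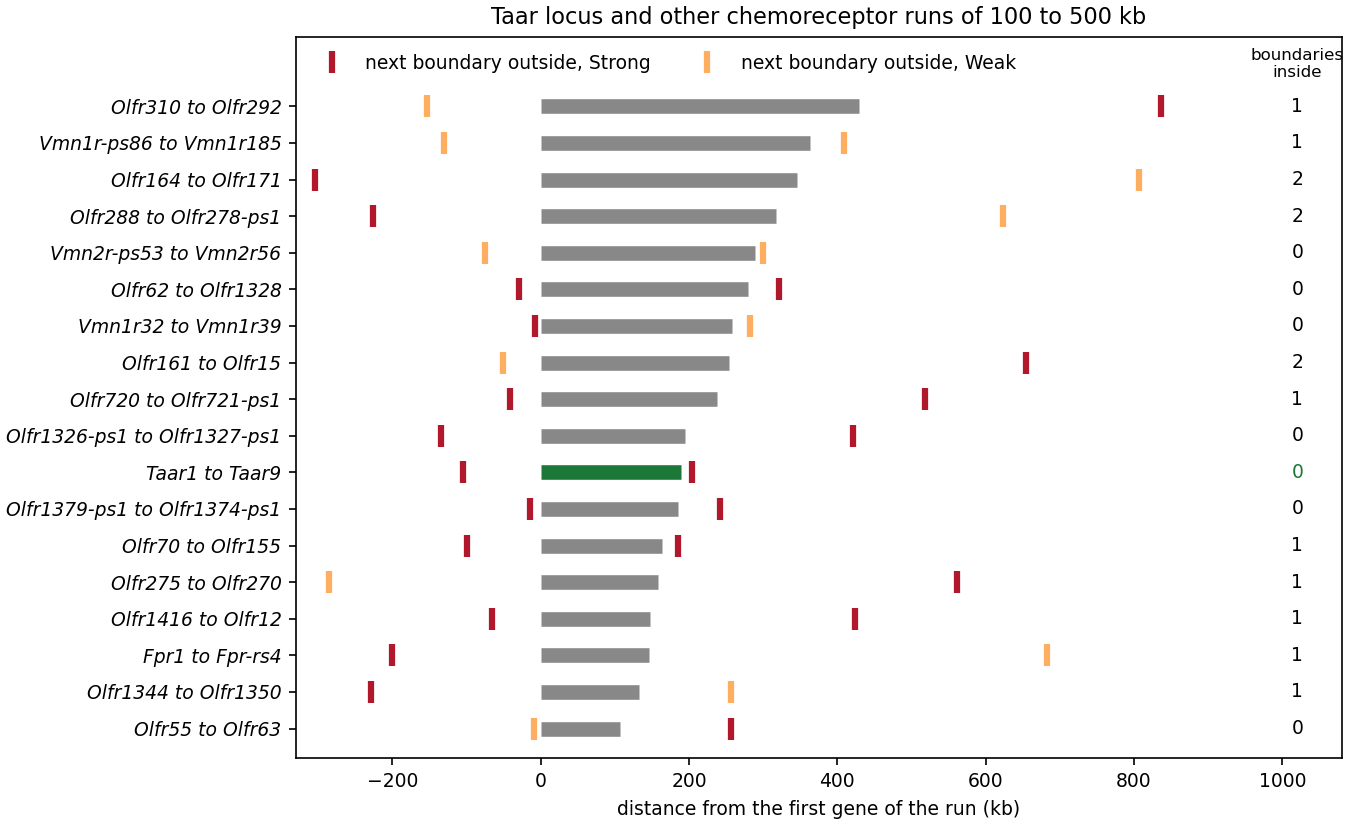
Span of each run (bars) and the next boundary outside it on each side (ticks, coloured by class) in kb from the first gene, with the number of boundaries inside at the right. The Taar run has 0 inside and its right boundary 15.5 kb from its end.

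A list of 8 olfactory signalling genes, Gnal, Gnas, Adcy3, Cnga2, Cnga4, Cngb1, Ano2 and Omp, was placed in the same way. Of these, 1 started at most 20 kb from a boundary, beside 21.2% of coding genes. It was Gnal, the olfactory G protein subunit (Strong, score 2.31, 11.8 kb away). The median distance of the 8 to a boundary was 47.5 kb, against 57 kb for all coding genes and 135 kb for the listed Taar genes. Among genes of amine metabolism, Odc1, ornithine decarboxylase, the first enzyme of polyamine synthesis, started 0.207 kb from a Strong boundary of score 1.39.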

How the data were processed

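One boundary list was used. Per the series design text, the authors called boundaries on the GRCm38 contact matrix combined from both replicates and deposited a score and a class for each 5 kb interval; for the caller and its settings, nothing is stated in the labels or the list. The class limit of 0.5 was read from the values. Genes came from GENCODE mouse release 21 and sequence from GRCm38.p6, a C57BL/6J genome of the same build. The sorted cells came from another strain, and whether the printed and counted sequences are the same in it was not checked.

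A gene had a boundary within 20 kb when their 5 kb bins were at most 20 kb apart; distances are from the TSS to the nearer edge of the interval. Domains with over 50 kb of undetermined bases (41 of 8038) were left out of ranks. Coding sequences were aligned globally with Biopython 1.88 (match 2, mismatch -1, gap opening -5, gap extension -0.5), and identity is over all alignment columns. Python 3.11.15, NumPy 2.4.6 and matplotlib 3.10.9 were used. The distance functions were tested on simulated data with planted boundaries.

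The members, lists and motifs were chosen with earlier results of these data known. Named genes were the Taar genes, coding genes of their domain, the coding gene nearest each boundary of the window, genes at the ends of the 3 runs nearest in span, and listed amine genes with a boundary within 20 kb; other neighbours were named after their positions were seen. No test was made, since 1 pooled list gives no replicate values. Counts over the amine metabolism genes of the list are not reported here.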

Additional observations from a re-analysis of the deposited data

How the results depend on the processing

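No paired analysis was possible because the list was called on 1 pooled map of 1 group, and for the same reason no replicate could be left out. Counts and densities were taken as unmoved within 1.5 times their value, and sizes and distances only when equal. By this rule 16 of 25 alternative values stayed and 9 moved. Within 10 kb, and with the top 25% of scores (0.928 or more), the listed genes with a boundary near the TSS went from 1 to 0. With that top 25% the right boundary of score 0.635 dropped out, so the domain grew from 310 to 800 kb. The next boundary then lay 505 kb beyond Taar9 and the window held 1.37 boundaries per Mb. This rule keeps 25% of all boundaries by its making, and it kept 3 of the 7 in the window. Strong boundaries alone left the domain at 310 kb, with 2.74 per Mb in the window against 1.6 per Mb in the genome. Adding 20 kb at each edge of the locus took in 1 boundary, the right one. With promoter windows reaching 1 kb upstream, TAATTA was in 3 of the 5 (22% of all windows) and TATAAA in 5 (45.5%). Allowing 1 mismatch, 5 of the 7 boundaries had a CTCF core match, against 76.3% of all. How many low-scoring boundaries the contact depth let the authors find is not known.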
